A study of Canis lupus familiaris with 29 samples.

Results

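The genes described here encode proteins that move inorganic ions and metals across membranes. They were chosen by symbol: the solute carrier families SLC4, SLC8, SLC9, SLC12, SLC20, SLC24, SLC26, SLC30, SLC34, SLC39 and SLC41, the sodium pump subunits ATP1A and ATP1B, the epithelial sodium channel subunits SCNN1 and the inward rectifier potassium channels KCNJ. The choice used names only, though it was made with earlier results of these data known, and gave 94 genes of 15115 with a single symbol on the array. Each gene was read from 1 probe set, the one with the highest mean level. A level of log2 5 was met by 27 of the 94 genes in 3 or more of 29 arrays, and these were tested, while 67 were not. The symbols SLC9A3R1 and SLC9A3R2 also match, but they name scaffold proteins that bind transporters and are not carriers themselves.

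The arrays measured messenger RNA in MDCK cells, an established line of dog kidney tubule epithelium. Cells grown in 3D, in collagen, had HGF with U0126 (3 arrays), HGF with PD-98059 (3 arrays), HGF alone (4 arrays) or no treatment (control, 4 arrays). The same 4 conditions in 2D culture had 3, 4, 4 and 4 arrays. HGF, hepatocyte growth factor, is the ligand of the receptor kinase MET, and U0126 and PD-98059 are inhibitors of MEK, the kinase that activates ERK. Neither inhibitor was given without HGF, and the labels state no dose, time or solvent. Nothing in the labels says that arrays of a group came from separate cultures, so the p-values cover only how these arrays vary, and that variation may be technical.

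In a kidney tubule cell the sodium pump, an alpha with a beta subunit, exports sodium across the basolateral membrane and so drives the other carriers. SLC12 carriers couple chloride to sodium and potassium and set cell volume and chloride, SLC4 and SLC26 carriers move bicarbonate and other anions, and SLC20 and SLC34 carriers take up phosphate. SLC39 (ZIP) proteins bring zinc into the cytosol and SLC30 (ZnT) proteins take it out, into organelles or out of the cell. SLC41 proteins carry magnesium.

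The values are log2 levels as the authors deposited them, differences are given as mean ± the standard error from limma, and a gene rose or fell where the adjusted p was below 0.05. A level cannot be set against that of another gene, since probe sets differ in brightness. Of 9 epithelial markers on the array, 8 were at log2 5 or more in every array and CDH1 in none. Of 5 renal tubule markers only CDH16 was, and none of 7 fibroblast, 5 endothelial or 5 leukocyte markers reached log2 5 in any 3 arrays. Arrays of a group correlated at 0.9965 or more, except in 3D HGF, where the lowest correlation was 0.9886. An RNA-quality index, the mean excess of 3′ over 5′ or middle control probe sets, was 0.838 ± 0.0476 in 2D HGF against 1.44 ± 0.1 in 2D control, and 1.93 ± 0.238 in 3D control (SD, n = 4 each). Both contrasts with 2D control had an exact two-sided permutation p of 0.0286, the smallest that 4 against 4 arrays allow, and 0.0858 after adjustment over 9 comparisons. In the 2D inhibitor groups the index was 1.31 with U0126 and 1.36 with PD-98059, above 2D HGF with an exact p of 0.0571 (0.128 adjusted) for U0126 and 0.0286 (0.0858 adjusted) for PD-98059. The index in 3D HGF was 1.68 ± 0.583 (SD, n = 4), with an exact p of 0.514 against 3D control, and there array 1 was highest and array 4 lowest.

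The ion channel genes and many carrier genes of the tubule were too dim to test on these arrays. None of 4 sodium channel genes, 12 potassium channel genes and 6 sodium-proton exchanger genes was tested, with highest levels in any array of 4.50, 4.72 and 4.28. SCNN1A, SCNN1B and SCNN1G, the subunits of the channel that absorbs sodium in the collecting duct, had highest levels of 2.61, 3.29 and 4.50. KCNJ1 and KCNJ15, potassium channels of the tubule, had 2.59 and 2.00, and the apical sodium-proton exchanger SLC9A3 had 3.04. The thiazide-sensitive cotransporter SLC12A3 had 3.48, the potassium-chloride cotransporter SLC12A7 4.55, the sodium bicarbonate cotransporter SLC4A4 2.39 and the sodium-calcium exchanger SLC8A1 2.97. Of the phosphate carriers SLC20A2 had 3.64 and SLC34A2 2.29, and of the anion carriers SLC26A2 had 4.19 and SLC26A4 4.07. The metal carrier SLC39A14 had 3.40 and the magnesium carrier SLC41A1 2.11. The array medians were 3.06 to 3.26, so a low level cannot be told from background and does not show that a gene is silent.

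The 27 tested genes were 2 sodium pump beta subunits, 3 cation-chloride cotransporters, 4 SLC4 genes, SLC26A11, both scaffolds, the calcium exchanger SLC24A5, the phosphate carrier SLC20A1, 2 SLC41, 3 SLC30 and 8 SLC39 genes. Of these, 19 were at log2 5 or more in all 29 arrays. The other 8 fell below log2 5 in some: SLC39A8 in 1 array only, while SLC12A1 reached it in 3 arrays, SLC41A3 in 5, SLC4A11 and SLC9A3R2 in 7, SLC24A5 and SLC39A4 in 9 and SLC39A11 in 11. Such a gene could enter the test through the groups where it is high, its test is then no support for a difference from those groups, and a fold from a level below log2 5 rests partly on background signal.

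In these bulk samples fewer cells of a kind and less RNA per cell cannot be told apart. What HGF did to these genes was asked in each culture by setting 4 HGF arrays against 4 control arrays. In 3D, 12 of 27 genes rose and 5 fell, beside 62.1% (29.4% higher, 32.6% lower) of all 16571 tested probe sets. Of the genes at log2 5 or more in every array, SLC20A1, SLC30A9 and SLC12A4 were among those that rose, and SLC12A2 and SLC26A11 among those that fell. In 2D, 8 rose and 7 fell, beside 55.4% (26.3% higher, 29.2% lower) of all probe sets, and of the genes bright in every array SLC20A1, SLC12A4 and SLC41A2 were among those that rose. The median difference of the 27 genes was 0.22 in 3D and 0.00 in 2D, against -0.00 and -0.03 over all tested probe sets. The share that changed was near that of all probe sets in both cultures, so the counts say nothing particular about these genes. At least 2-fold changes that passed numbered 8 of 27 in 3D and 6 in 2D, beside 24% and 19.4% of all probe sets.

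**Figure D1:**
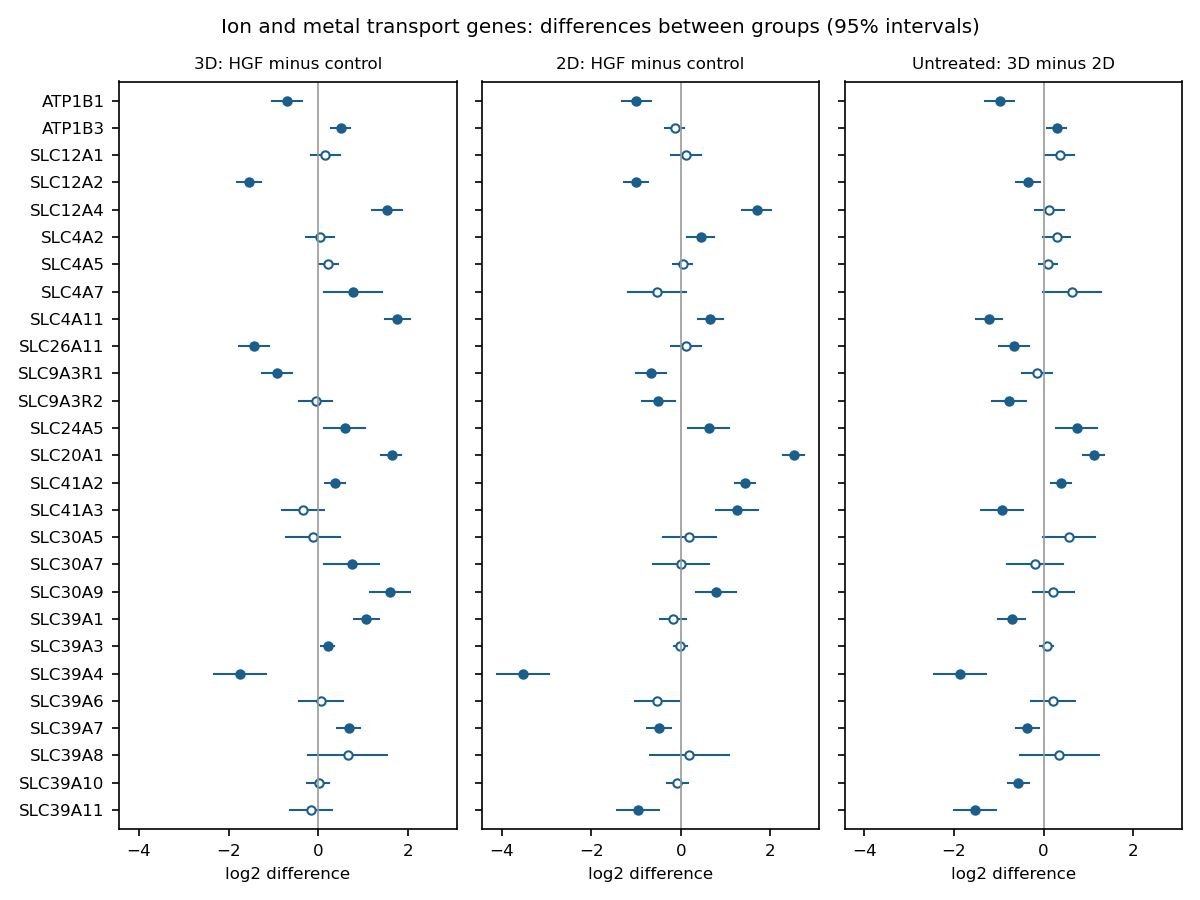
Log2 differences of the 27 tested genes (rows, grouped by role) for HGF against control in 3D, HGF against control in 2D, and untreated 3D against untreated 2D cells. Points are limma estimates, bars 95% intervals, and filled points passed the adjusted p threshold of 0.05. SLC20A1 and SLC12A4 lie right of 0 in both HGF panels and SLC39A4, SLC12A2 and ATP1B1 left of 0. SLC39A4 entered the test through 2D control and the 2D inhibitor groups, so its points against 2D control are descriptions with no test.

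Untreated 3D and 2D cells were compared to ask what culture in collagen changed by itself. Of the 27 genes 4 were higher in 3D control and 11 were lower, beside 52.3% (23.6% higher, 28.7% lower) of all probe sets. The genes lower in 3D included 5 of the 8 ZIP genes, ATP1B1 and SLC26A11, and the highest was SLC20A1. Of these ZIP genes, SLC39A4 and SLC39A11 entered the test through 2D groups, 2D control among them. The median difference of the 27 genes was 0.07, against -0.03 over all probe sets. Whether HGF acted differently in both cultures was tested as the 3D difference minus the 2D difference: 8 genes were more positive in 3D and 5 more negative, beside 48.3% (22% higher, 26.3% lower) of all probe sets. The HGF effects in 3D and 2D share no arrays, while the untreated comparison shares its arrays with both. Changes of at least 2-fold that passed numbered 4 of 27 between controls and 8 for the difference of effects, beside 15.3% and 21.4% of all probe sets.

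Adding a MEK inhibitor to HGF was asked against HGF alone, with doses not known. In 3D, U0126 raised 6 genes and lowered 8, beside 49.3% (25.4% higher, 23.8% lower) of all probe sets, and PD-98059 raised 5 and lowered 7, beside 42% (26.6% higher, 15.4% lower). In 2D, U0126 raised 6 and lowered 7, beside 50.1% (25.8% higher, 24.3% lower), and PD-98059 raised 8 and lowered 7, beside 52.4% (27.6% higher, 24.9% lower). At least 2-fold, U0126 had 3 in 3D and 6 in 2D and PD-98059 4 in 3D and 6 in 2D, beside 15.6%, 17.2%, 12.5% and 17.2% of all probe sets. These comparisons share the HGF arrays with the HGF comparisons and, within a culture, with each other, and the values of each gene are given side by side.

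Several smaller calls did not pass with the RNA-quality index as a covariate, and the part of RNA quality in them was not tested further. For HGF in 3D these were SLC4A7 (0.62, adjusted p = 0.0926) and SLC24A5 (0.53, adjusted p = 0.0506). For HGF in 2D they were SLC24A5 (0.46, adjusted p = 0.167) and SLC9A3R2 (-0.34, adjusted p = 0.201), and between controls SLC12A2 (-0.21, adjusted p = 0.225). For PD-98059 in 2D they were SLC41A3 (-0.58, adjusted p = 0.0784), SLC9A3R1 (0.11, adjusted p = 0.527) and SLC9A3R2 (0.37, adjusted p = 0.153), and for U0126 in 2D SLC12A2 (-0.29, adjusted p = 0.115) and SLC30A9 (-0.14, adjusted p = 0.54).

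SLC20A1, the sodium-dependent phosphate importer PiT-1, had the largest rise of these genes with HGF in 2D. Its level in 3D was 10.89, 10.98 and 11.15 with U0126, 11.53, 11.20 and 11.40 with PD-98059, 12.25, 12.55, 12.86 and 12.78 with HGF alone and 10.90, 10.97, 10.91 and 11.13 in control. In 2D it was 9.92, 9.72 and 9.52 with U0126, 9.94, 9.73, 9.94 and 9.88 with PD-98059, 12.46, 12.23, 12.44 and 12.37 with HGF alone and 9.95, 9.91, 9.90 and 9.68 in control. The HGF arrays lay above all others of their culture, and the inhibitor arrays of 2D lay within or below the range of 2D control. HGF raised it by 1.64 ± 0.11 in 3D (3.11-fold, adjusted p = 1.83e-12) and by 2.52 ± 0.11 in 2D (5.74-fold, adjusted p = 4.22e-16). The rise was smaller in 3D, with a difference of -0.88 ± 0.16 (adjusted p = 4.79e-05), where the control level was already higher than in 2D control by 1.12 ± 0.11 (adjusted p = 5.61e-09). U0126 lowered it with a difference of -1.60 ± 0.12 in 3D and -2.66 ± 0.12 in 2D, and PD-98059 with a difference of -1.23 ± 0.12 in 3D and -2.51 ± 0.11 in 2D, all with adjusted p of 4.64e-09 or lower. A second probe set of the gene rose by 2.16 in 3D and 2.49 in 2D, and its difference between cultures of -0.33 did not pass (adjusted p = 0.366).

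**Figure D2:**
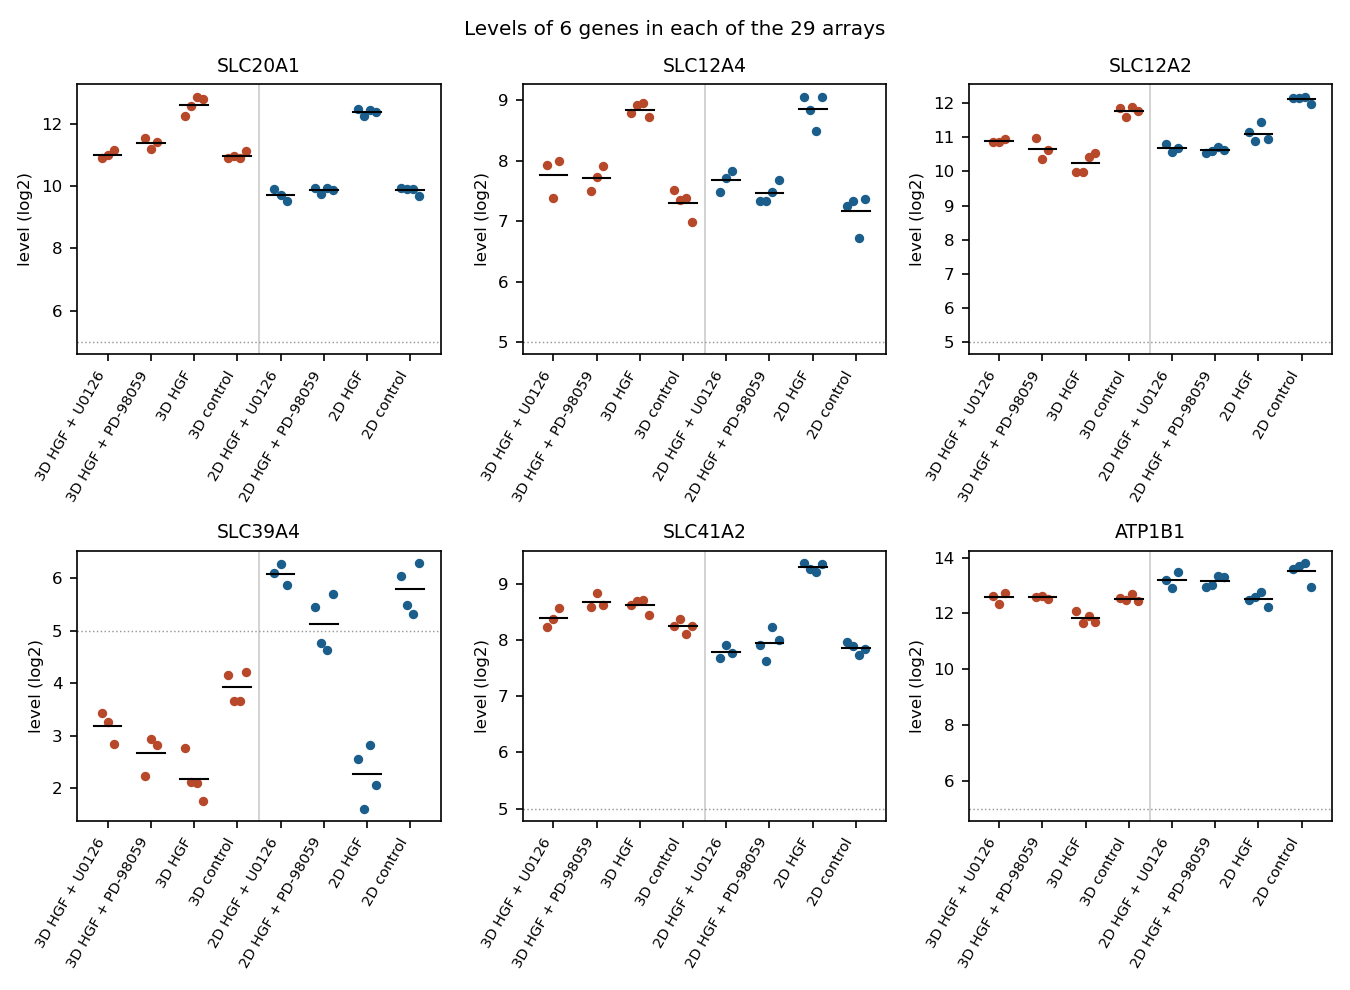
Log2 level (vertical axis) of SLC20A1, SLC12A4, SLC12A2, SLC39A4, SLC41A2 and ATP1B1 in each of the 29 arrays, by group, with 3D groups on the left in red and 2D groups on the right in blue. Points are arrays, short black lines group means and the dotted line log2 5; the HGF arrays of SLC20A1 and SLC12A4 lie above the control arrays of their culture, and those of SLC39A4, SLC12A2 and ATP1B1 below.

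Of the 3 tested cation-chloride cotransporters, SLC12A4 rose and SLC12A2 fell with HGF, and SLC12A1 did not pass. SLC12A4, the potassium-chloride cotransporter KCC1, which lets chloride and potassium leave the cell, had levels of 8.79, 8.92, 8.95 and 8.72 in 3D HGF against 7.51, 7.35, 7.38 and 6.99 in 3D control. In 2D it had 9.06, 8.84, 8.50 and 9.06 with HGF against 7.26, 7.34, 6.73 and 7.37 in control. All HGF arrays lay above all control arrays, and the rises were 1.54 ± 0.16 in 3D (adjusted p = 4.91e-09) and 1.69 ± 0.16 in 2D (adjusted p = 1.13e-09). Their difference was -0.15 ± 0.22 with a 95% interval of -0.61 to 0.31, which did not pass (adjusted p = 0.613). With U0126 the level was 7.93, 7.39 and 8.0 in 3D and 7.48, 7.72 and 7.83 in 2D, and with PD-98059 it was 7.50, 7.73 and 7.91 in 3D and 7.34, 7.34, 7.48 and 7.68 in 2D. No inhibitor array reached the lowest HGF array of its culture, and the falls against HGF were -1.07 and -1.19 for U0126 and -1.13 and -1.40 for PD-98059 in 3D and 2D, with adjusted p of 9.73e-06 or lower.

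SLC12A2, the sodium-potassium-chloride cotransporter NKCC1, which loads chloride into the cell, fell with HGF. Its levels were 9.99, 9.99, 10.43 and 10.54 in 3D HGF against 11.86, 11.59, 11.88 and 11.77 in 3D control, and 11.15, 10.90, 11.45 and 10.94 in 2D HGF against 12.15, 12.14, 12.19 and 11.99 in 2D control. The HGF arrays of both cultures lay below their controls with no overlap. The differences were -1.54 ± 0.13 in 3D (adjusted p = 1.12e-10) and -1.01 ± 0.13 in 2D (adjusted p = 2.70e-07). With U0126 its level was 10.85, 10.87 and 10.96 in 3D and 10.81, 10.58 and 10.70 in 2D, between HGF and control in 3D but below every HGF array in 2D. Against HGF the U0126 difference was 0.66 ± 0.14 in 3D (adjusted p = 0.000318) and -0.42 ± 0.14 in 2D (adjusted p = 0.0152), and the difference between cultures was 1.07 ± 0.20 (adjusted p = 0.000117). For PD-98059 the values were 0.43 ± 0.14 in 3D (adjusted p = 0.0145) and -0.49 ± 0.13 in 2D (adjusted p = 0.00233), with levels of 10.99, 10.37 and 10.64 in 3D and 10.55, 10.60, 10.71 and 10.63 in 2D, and a difference between cultures of 0.92 ± 0.19 (adjusted p = 0.00043). Over the mean of its 3 tested probe sets no inhibitor call held: for PD-98059 the values were -0.19, adjusted p = 0.713 in 3D and -0.47, adjusted p = 0.249 in 2D, and for U0126 0.37, adjusted p = 0.417 in 3D and -0.00, adjusted p = 0.998 in 2D. Of the smaller of these calls, for the 3D rise with PD-98059 the call was lost without any 1 of 3D HGF arrays 1 and 2 and 3D PD-98059 array 1, at 0.27 to 0.35 and adjusted p of 0.0525 to 0.149, and for the 2D fall with U0126 the call was lost without any 1 of 2D HGF array 3 and 2D U0126 array 2, at -0.36 to -0.30 and adjusted p of 0.0713 to 0.0761.

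The probe sets of SLC12A2 did not give 1 answer on the cultures. The HGF difference between cultures was -0.53 ± 0.18 (adjusted p = 0.0181) on the probe set with the highest mean, and without 2D HGF array 3 the value was -0.42, adjusted p = 0.0527. On its other 2 tested probe sets HGF in 3D gave -0.52 and -0.63, which did not pass, HGF in 2D gave -1.95 and -1.93, which did, and the difference between cultures was 1.43 and 1.30, which did not pass. Over the mean of the 3 probe sets it was 0.73, with adjusted p = 0.212. The fall in 2D was thus common to all 3 probe sets, and the size in 3D and its order against 2D were not. SLC12A2 was lower in 3D than in 2D control with a difference of -0.34 ± 0.13 (adjusted p = 0.0285), and the call was lost without any 1 of 3D control arrays 2 and 4 and 2D control arrays 1, 2 and 3, at -0.34 to -0.28 and adjusted p of 0.0507 to 0.0991. SLC12A1, the loop diuretic target NKCC2 of the thick ascending limb, stayed between 4.32 and 5.40 in all arrays, and its HGF differences of 0.15 in 3D and 0.12 in 2D did not pass.

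Of the sodium pump subunits, ATP1B1, the main beta subunit of kidney epithelium, fell with HGF. Its levels were 12.10, 11.66, 11.91 and 11.68 in 3D HGF against 12.55, 12.47, 12.68 and 12.43 in 3D control, and 12.50, 12.58, 12.76 and 12.22 in 2D HGF against 13.59, 13.70, 13.80 and 12.94 in 2D control. The arrays did not overlap in either culture. The falls were -0.69 ± 0.16 in 3D (adjusted p = 0.000394) and -0.99 ± 0.16 in 2D (adjusted p = 5.55e-06), and 3D control was lower than 2D control with a difference of -0.97 ± 0.16 (adjusted p = 9.85e-06). With inhibitors the level was 12.63, 12.35 and 12.75 (U0126) and 12.60, 12.61 and 12.53 (PD-98059) in 3D, and 13.21, 12.91 and 13.50 (U0126) and 12.96, 13.03, 13.36 and 13.31 (PD-98059) in 2D. Every inhibitor array lay above the HGF arrays of its culture, and the 4 differences against HGF were 0.74, 0.75, 0.69 and 0.65 in the same order, with adjusted p of 0.00116 or lower.

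ATP1B3, another beta subunit, rose with HGF in 3D, and its difference in 2D did not pass. It had 13.70, 13.52, 13.62 and 13.13 in 3D HGF against 12.88, 13.01, 13.15 and 12.91 in 3D control, and 1 HGF array lay within the control range. The difference was 0.50 ± 0.10 in 3D (adjusted p = 0.00015), -0.13 ± 0.10 in 2D (adjusted p = 0.285), and 0.64 ± 0.15 between cultures (adjusted p = 0.000804). All 4 tested probe sets of the gene had a positive and passing difference between cultures, from 0.64 to 1.30. U0126 lowered it in 3D with a difference of -0.72 ± 0.11 (adjusted p = 5.97e-06), and its 3D PD-98059 difference was -0.33 ± 0.11 (adjusted p = 0.0205); the call was lost without any 1 of 3D HGF arrays 1 and 3 and 3D PD-98059 arrays 1 and 2, at -0.32 to -0.26 and adjusted p of 0.0562 to 0.0984. The 3D control level was above 2D control by 0.29 ± 0.10 (adjusted p = 0.0202), and the call was lost without any 1 of 3D control array 3 and 2D control array 4, at 0.24 to 0.27 and adjusted p of 0.0545 to 0.0789; with the RNA-quality index as a covariate it was 0.12, adjusted p = 0.348.

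Of the tested SLC4 genes, the one under log2 5 in some arrays was SLC4A11, which belongs to the family by sequence but is not known to carry bicarbonate in human cells. It had 5.06, 5.28, 4.97 and 5.13 in 3D HGF against 3.35, 3.33, 3.35 and 3.32 in 3D control, and 5.38, 5.24, 5.05 and 5.18 in 2D HGF against 4.28, 4.57, 4.63 and 4.74 in 2D control. The HGF arrays of both cultures were alike and near log2 5, and the control arrays were dimmer in 3D than in 2D. It reached log2 5 in 7 arrays, all of them with HGF alone, so it entered the test through the groups where it is high, and its HGF difference of 1.77 in 3D and 0.66 in 2D is a description with no test. 3D control was below 2D control with a difference of -1.21 ± 0.14 (adjusted p = 4.54e-08), both under log2 5. With U0126 it was 2.32, 2.93 and 2.57 in 3D and 2.68, 2.90 and 3.27 in 2D, and with PD-98059 3.26, 3.21 and 3.29 in 3D and 3.29, 2.99, 3.25 and 3.21 in 2D. These arrays lay below the control arrays of their culture, all of them, and the differences from HGF were -2.50 and -2.26 for U0126 and -1.86 and -2.03 for PD-98059 in 3D and 2D. Levels under 5 are dim, so the sizes are uncertain.

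The other SLC4 genes were bright and moved less. SLC4A7, the sodium bicarbonate cotransporter NBCn1, had 11.04, 10.05, 11.28 and 11.55 in 3D HGF against 9.85, 10.67, 9.80 and 10.48 in 3D control, with overlap, and a difference of 0.78 ± 0.32 (adjusted p = 0.036). For 3D, the call was lost without any 1 of 3D control arrays 1 and 3 and 3D HGF arrays 1, 3 and 4, at 0.59 to 0.76 and adjusted p of 0.0611 to 0.134. In 2D its difference was -0.53 ± 0.32 (adjusted p = 0.163), and between cultures 1.31 ± 0.45 (adjusted p = 0.018); without 2D HGF array 1 the value was 1.05, adjusted p = 0.0525. A second probe set gave 0.55 in 3D, -0.66 in 2D and 1.21 between cultures, none of which passed. PD-98059 lowered SLC4A7 in 3D with a difference of -1.37 ± 0.34 (adjusted p = 0.00208). With U0126 in 3D its levels of 10.79, 10.44 and 10.56 lay within the range of 3D HGF, and the difference did not pass. SLC4A2, the chloride-bicarbonate exchanger AE2, rose in 2D by 0.44 ± 0.15 (adjusted p = 0.0136), and without 2D HGF array 1 the value was 0.33, adjusted p = 0.0756; PD-98059 lowered it in 2D with a difference of -0.68 ± 0.15 (adjusted p = 0.000381) and U0126 gave -0.38 ± 0.16 (adjusted p = 0.0501). All 3 of its tested probe sets rose with HGF in 2D. SLC4A5, a sodium bicarbonate cotransporter, had 0.23 with HGF in 3D and 0.04 in 2D, neither of which passed. It fell with U0126 in 3D with a difference of -0.29 ± 0.11 (adjusted p = 0.032) and overlapping arrays. That call was lost without any 1 of 3D HGF array 1 and 3D U0126 array 1, at -0.20 to -0.15 and adjusted p of 0.161 to 0.189.

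SLC26A11, a sulfate and chloride carrier, fell with HGF in 3D, and its difference in 2D did not pass. Its levels were 9.29, 8.75, 8.30 and 8.12 in 3D HGF against 10.27, 9.92, 10.03 and 9.97 in 3D control. In 2D they were 10.87, 10.89, 10.77 and 10.73 with HGF against 10.74, 10.74, 10.60 and 10.72 in control. All 3D HGF arrays lay below 3D control, while the 2D groups overlapped. The differences were -1.43 ± 0.16 in 3D (adjusted p = 2.68e-08) and 0.12 ± 0.16 in 2D (adjusted p = 0.583), and -1.55 ± 0.23 between cultures (adjusted p = 4.70e-06). Within 3D HGF, array 1 had the highest level of the gene and the highest RNA-quality index and array 4 the lowest of both. With that index as a covariate the HGF difference was -1.23, adjusted p = 1.71e-10 in 3D and 0.59, adjusted p = 0.000247 in 2D, and with 3D HGF arrays 1 and 4 left out it was -1.52, adjusted p = 1.25e-09 in 3D. U0126 raised it in 3D by 0.99 ± 0.18 (adjusted p = 3.64e-05), with levels of 9.50, 9.67 and 9.66, and PD-98059 by 0.58 ± 0.18 (adjusted p = 0.00923); without 3D PD-98059 array 3 the PD-98059 value was 0.50, adjusted p = 0.0553. In 2D neither inhibitor gave a difference that passed. 3D control was below 2D control with a difference of -0.65 ± 0.16 (adjusted p = 0.00154).

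The scaffold SLC9A3R1 (NHERF1), which anchors the sodium-proton exchanger and other proteins at the apical membrane, fell with HGF with a difference of -0.91 ± 0.16 in 3D (adjusted p = 2.52e-05) and -0.66 ± 0.16 in 2D (adjusted p = 0.00117). Its levels were 10.98, 10.19, 10.29 and 9.91 in 3D HGF against 11.39, 11.19, 11.34 and 11.10 in 3D control, and 10.94, 10.51, 10.77 and 10.72 in 2D HGF against 11.55, 11.38, 11.26 and 11.40 in 2D control, without overlap. In 2D, where the RNA-quality index also differed between the groups, its difference with the index as a covariate was -0.23, adjusted p = 0.181. Inhibitors raised it by 0.83 (U0126) and 0.78 (PD-98059) in 3D and by 0.78 (U0126) and 0.49 (PD-98059) in 2D; for the last, the call was lost without any 1 of 2D HGF array 2 and 2D PD-98059 array 4, at 0.40 to 0.41 and adjusted p of 0.0539 to 0.0568. SLC9A3R2 (NHERF2) was dim and reached log2 5 in 7 arrays, all of them in 2D control or the 2D inhibitor groups. It entered the test through these groups, so its differences from them are descriptions with no test. 3D control was below 2D control with a difference of -0.77 ± 0.18. With HGF in 2D the difference was -0.50 ± 0.18 with overlapping arrays. Limma's call was lost without any 1 of 2D control arrays 1 and 4 and 2D HGF arrays 2 and 4, at -0.47 to -0.37. For PD-98059 in 2D the difference from HGF was 0.50 ± 0.18. Limma's call was lost without any 1 of 2D HGF arrays 2 and 4 and 2D PD-98059 arrays 1 and 4, at 0.37 to 0.48.

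SLC24A5, a potassium-dependent sodium-calcium exchanger known from pigment cells, was dim in most arrays. It reached log2 5 in 9 arrays, and 3D HGF was the only group where every array did. The others were spread over 3D PD-98059, 3D control, 2D U0126 and 2D HGF, so tests against 3D HGF are weak support. It rose with HGF by 0.59 ± 0.22 in 3D (adjusted p = 0.0234) and 0.62 ± 0.22 in 2D (adjusted p = 0.0212), both with overlapping arrays and named here after their values were seen. Its levels were 5.38, 5.62, 6.16 and 5.68 in 3D HGF against 4.97, 4.95, 4.98 and 5.57 in 3D control, so 1 control array lay above the lowest HGF array. For 3D, the call was lost without any 1 of 3D control arrays 1, 2 and 3 and 3D HGF array 3, at 0.44 to 0.55 and adjusted p of 0.0576 to 0.104, and for 2D, the call was lost without any 1 of 2D control arrays 1, 3 and 4 and 2D HGF array 1, at 0.50 to 0.58 and adjusted p of 0.0503 to 0.0836. Both inhibitors lowered it in 3D, U0126 with a difference of -0.79 ± 0.24 (adjusted p = 0.00823) and PD-98059 with a difference of -0.74 ± 0.24 (adjusted p = 0.0155); for PD-98059 the call was lost without any 1 of 3D HGF array 3 and 3D PD-98059 array 2, at -0.70 to -0.59 and adjusted p of 0.0534 to 0.0635. It was higher in 3D than in 2D control by 0.74 ± 0.22 (adjusted p = 0.00714).

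Of the 2 tested magnesium carriers, SLC41A2 rose with HGF in both cultures, and less in 3D. SLC41A2 had 8.62, 8.69, 8.70 and 8.44 in 3D HGF against 8.24, 8.37, 8.11 and 8.24 in 3D control, and 9.36, 9.25, 9.21 and 9.34 in 2D HGF against 7.96, 7.89, 7.73 and 7.83 in 2D control. The HGF arrays lay above control in both cultures, narrowly in 3D. Its rises were 0.37 ± 0.11 in 3D (adjusted p = 0.00379) and 1.44 ± 0.11 in 2D (adjusted p = 1.27e-11), with a difference of -1.07 ± 0.15 (adjusted p = 2.30e-06). Its 3 tested probe sets rose by 0.37 to 0.87 in 3D and 1.44 to 1.76 in 2D, and the difference passed on all 3. In 2D it was 7.68, 7.91 and 7.77 with U0126 and 7.90, 7.63, 8.22 and 8.0 with PD-98059, each array below every HGF array, and the differences were -1.51 and -1.35 (adjusted p of 4.41e-11 or lower). In 3D the inhibitor differences of -0.22 for U0126 and 0.07 for PD-98059 did not pass, and the difference of the effects between cultures was 1.28 ± 0.16 for U0126 and 1.42 ± 0.16 for PD-98059 (adjusted p of 8.05e-07 or lower). 3D control exceeded 2D control by 0.39 ± 0.11 (adjusted p = 0.00356) on this probe set, but the other 2 did not pass, at 0.30 and -0.24.

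SLC41A3, a second magnesium carrier, had 5.65, 5.78, 5.34 and 5.62 in 2D HGF against 4.65, 4.36, 3.96 and 4.40 in 2D control, and was below log2 4 in all 3D arrays. It reached log2 5 in 5 arrays, the 4 of 2D HGF and 1 of 2D PD-98059, and so entered the test through 2D HGF. Its HGF difference of 1.26 in 2D is therefore a description with no test, and that in 3D was -0.33 ± 0.23 (adjusted p = 0.218), which did not pass. 3D control was below 2D control with a difference of -0.92 ± 0.23 (adjusted p = 0.00156). In 2D the difference from HGF was -0.99 with U0126 and -0.69 with PD-98059.

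**Figure D3:**
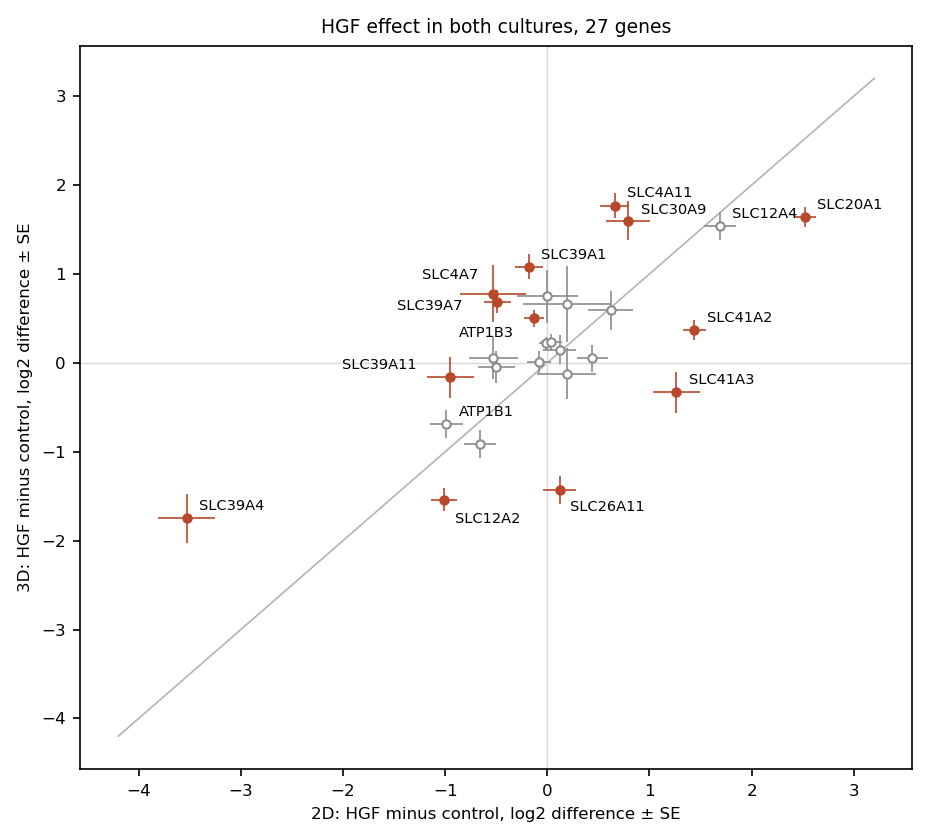
HGF minus control in 3D (vertical) against HGF minus control in 2D (horizontal) for the 27 tested genes, in log2 units, with bars of 1 standard error and a line of equal effect. Red filled points are the 13 genes whose difference between cultures passed limma's threshold. SLC26A11 lies at -1.43 in 3D and 0.12 in 2D, SLC41A3 at -0.33 and 1.26, and SLC39A4 at -1.75 and -3.53. SLC41A3, SLC39A4, SLC4A11 and SLC39A11 entered the test through some of the compared groups, so their points are descriptions with no test.

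Zinc importers of the ZIP family differed from each other. SLC39A4 (ZIP4), the zinc importer that is mutated in the human zinc deficiency disease acrodermatitis enteropathica, had 2.55, 1.61, 2.83 and 2.06 in 2D HGF against 6.05, 5.50, 5.32 and 6.29 in 2D control. In 3D it had 2.76, 2.11, 2.09 and 1.76 with HGF against 4.15, 3.67, 3.67 and 4.22 in control. Only 2D control and the 2D inhibitor groups held arrays above log2 5, and all 3D arrays were dim. It entered the test through those 2D groups, and the 2D HGF arrays were below the array medians of 3.06 to 3.26, so the 2D difference of -3.53 is a description whose size is uncertain. In 3D, with both groups under log2 5, the difference was -1.75 ± 0.28 (adjusted p = 6.02e-06). The difference between cultures of 1.78 stands beside a 3D control level below 2D control (difference -1.86). It also stands beside HGF levels of 2.18 ± 0.42 in 3D and 2.26 ± 0.54 in 2D (SD, n = 4 each), near background. Both differences involve 2D control, so they too are descriptions with no test. In 2D the level of SLC39A4 was 6.10, 6.28 and 5.88 with U0126 and 5.45, 4.77, 4.64 and 5.70 with PD-98059, a range that overlaps that of 2D control. All these arrays lay above the 2D HGF arrays, with a difference of 3.82 for U0126 and 2.88 for PD-98059. In 3D it was 3.44, 3.26 and 2.85 with U0126 (1.0 ± 0.30 against HGF, adjusted p = 0.00749) and 2.23, 2.94 and 2.83 with PD-98059 (0.49 ± 0.30, adjusted p = 0.21), and every one of these arrays lay below 3D control. The inhibitor effects were smaller in 3D than in 2D with a difference of -2.82 for U0126 and -2.39 for PD-98059, again against those dim 2D HGF arrays.

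SLC39A1 (ZIP1), a zinc importer of the plasma membrane, rose with HGF in 3D. It had 7.10, 7.47, 7.50 and 7.14 in 3D HGF against 6.36, 6.53, 5.75 and 6.26 in 3D control, and 6.93, 6.45, 6.73 and 6.92 in 2D HGF against 7.01, 6.99, 6.80 and 6.95 in 2D control. The 3D groups did not overlap, and the 2D groups did. The difference was 1.08 ± 0.14 in 3D (adjusted p = 3.16e-07), -0.18 ± 0.14 in 2D (adjusted p = 0.3) and 1.26 ± 0.20 between cultures (adjusted p = 1.24e-05), with 3D control below 2D control with a difference of -0.71 ± 0.14 (adjusted p = 0.000159). In 3D neither inhibitor gave a difference that passed, at -0.31 ± 0.15 for U0126 (adjusted p = 0.104) and 0.06 ± 0.15 for PD-98059 (adjusted p = 0.808). Its arrays with inhibitors in 3D were 7.07, 7.0 and 6.92 with U0126 and 7.19, 7.48 and 7.42 with PD-98059, all above 3D control. In 2D PD-98059 raised it by 0.48 ± 0.14 (adjusted p = 0.00625).

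SLC39A7 (ZIP7), which releases zinc from the endoplasmic reticulum into the cytosol, moved in opposite directions in both cultures. It had 9.31, 10.12, 9.89 and 10.17 in 3D HGF against 9.09, 9.23, 9.17 and 9.25 in 3D control, and 8.96, 8.98, 9.07 and 9.23 in 2D HGF against 9.68, 9.40, 9.45 and 9.65 in 2D control. HGF arrays lay above control in 3D and below control in 2D, without overlap. The differences were 0.69 ± 0.13 in 3D (adjusted p = 3.57e-05), -0.49 ± 0.13 in 2D (adjusted p = 0.00177) and 1.17 ± 0.18 between cultures (adjusted p = 5.77e-06). With the RNA-quality index as a covariate they were 0.54, adjusted p = 9.74e-06 in 3D and -0.82, adjusted p = 4.27e-07 in 2D. In 2D both inhibitors raised it, U0126 by 0.58 ± 0.14 (adjusted p = 0.000863) and PD-98059 by 0.65 ± 0.13 (adjusted p = 8.36e-05), while in 3D U0126 lowered it with a difference of -0.46 ± 0.14 (adjusted p = 0.00662). The U0126 difference between cultures was -1.03 ± 0.19 (adjusted p = 0.000128) and that of PD-98059 -0.83 ± 0.18 (adjusted p = 0.000855). 3D control was lower than 2D control with a difference of -0.36 ± 0.13 (adjusted p = 0.0174); the call was lost without any 1 of 2D control arrays 1 and 4, at -0.33 to -0.32 and adjusted p of 0.0505 to 0.0575, and with the index as a covariate it was -0.09, adjusted p = 0.49.

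SLC39A11 (ZIP11) was dim in 3D and in 2D HGF, and brighter in the other 2D groups. It reached log2 5 in 11 arrays, all of them in 2D control and the 2D inhibitor groups, and entered the test through these. Its differences from those groups, and the differences between cultures that include them, are descriptions with no test. It had 4.74, 4.51, 4.66 and 4.51 in 2D HGF against 5.93, 5.68, 5.54 and 5.08 in 2D control, a difference of -0.95 ± 0.23. The 2D inhibitor arrays of 6.17, 6.13 and 5.99 with U0126 and 6.06, 6.46, 6.31 and 6.35 with PD-98059 all exceeded 2D control. Against 2D HGF the difference was 1.49 ± 0.25 for U0126 and 1.69 ± 0.23 for PD-98059. In 3D HGF gave -0.16 ± 0.23 (adjusted p = 0.575) and 1 array, 3D HGF array 1 at 2.88, lay far below the other 3. The 3D rises with U0126 of 0.78 ± 0.25 (adjusted p = 0.0108) and with PD-98059 of 0.67 ± 0.25 (adjusted p = 0.0325) did not pass when it was left out: without 3D HGF array 1 they were 0.45 with adjusted p = 0.0529 and 0.34 with adjusted p = 0.165. The PD-98059 call was also lost without 3D PD-98059 array 1 or 2, at 0.58 and 0.59 (adjusted p = 0.111 for both). The HGF difference between cultures was 0.79 ± 0.32. Limma's call for it was lost without any 1 of 18 of the 29 arrays, at 0.67 to 0.81 and adjusted p of 0.0501 to 0.103. 3D control was lower than 2D control with a difference of -1.53 ± 0.23.

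Of the other 4 ZIP genes, SLC39A3 passed with HGF in 3D and none in 2D. SLC39A3 (ZIP3) rose in 3D by 0.22 ± 0.07 (adjusted p = 0.00886) with overlapping arrays and is named after its value was seen. SLC39A6 (ZIP6) and SLC39A10 (ZIP10), zinc importers of the plasma membrane, gave 0.06 and 0.01 in 3D and -0.53 and -0.08 in 2D, and none passed, though the 2D value of SLC39A6 did with the RNA-quality index as a covariate (-1.08, adjusted p = 0.000373). Both inhibitors raised SLC39A6 in 2D, U0126 by 0.97 ± 0.26 (adjusted p = 0.00253) and PD-98059 by 0.84 ± 0.24 (adjusted p = 0.00394), with arrays above all 2D HGF arrays. SLC39A10 was lower in 3D than in 2D control with a difference of -0.56 ± 0.12 (adjusted p = 0.000268), and its second probe set gave -0.35, which did not pass. SLC39A8 (ZIP8), which carries zinc and manganese, was at 6.22, 6.25, 6.14 and 8.83 in 3D HGF against 6.33, 6.14, 5.97 and 6.35 in 3D control; the difference of 0.66 ± 0.43 did not pass, and without 3D HGF arrays 1 and 4 it was -0.00.

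Of the zinc exporters, SLC30A9 (ZnT9), which removes zinc from mitochondria in human cells, rose with HGF. It had 6.88, 8.19, 8.06 and 8.66 in 3D HGF against 6.54, 6.19, 6.17 and 6.49 in 3D control, and 6.84, 6.84, 7.13 and 6.86 in 2D HGF against 6.12, 6.05, 6.32 and 6.02 in 2D control. No arrays overlapped, though 3D HGF array 1 was far below the other 3. The rises were 1.60 ± 0.22 in 3D (adjusted p = 5.29e-07) and 0.79 ± 0.22 in 2D (adjusted p = 0.00331). With the RNA-quality index as a covariate they were 1.35, adjusted p = 3.17e-08 in 3D and 0.19, adjusted p = 0.41 in 2D; its part in the 2D rise was not tested further. Between cultures the difference was 0.81 ± 0.31 (adjusted p = 0.0317), and the call was lost without any 1 of 3D control arrays 2 and 3, 3D HGF arrays 2, 3 and 4, 2D control array 3 and 2D HGF arrays 1, 2 and 4, at 0.58 to 0.79 and adjusted p of 0.0502 to 0.0884. Against HGF, U0126 gave -0.73 ± 0.24 in 3D (adjusted p = 0.0122) and -0.62 ± 0.24 in 2D (adjusted p = 0.0309), and PD-98059 -0.77 ± 0.24 in 3D (adjusted p = 0.00995). Without 3D HGF array 4 the 3D values were -0.49 for U0126 (adjusted p = 0.0629) and -0.53 for PD-98059 (adjusted p = 0.0519), and for U0126 in 2D the call was lost without any 1 of 2D HGF array 3 and 2D U0126 arrays 2 and 3, at -0.59 to -0.50 and adjusted p of 0.079 to 0.135.

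SLC30A7 (ZnT7) and SLC30A5 (ZnT5) load zinc into enzymes of the secretory pathway. SLC30A7 had 7.51, 8.20, 8.14 and 8.79 in 3D HGF against 7.38, 7.48, 7.30 and 7.46 in 3D control, a difference of 0.75 ± 0.30 (adjusted p = 0.0335), and the call was lost without any 1 of 3D control arrays 1, 3 and 4 and 3D HGF arrays 2, 3 and 4, at 0.54 to 0.77 and adjusted p of 0.0503 to 0.14. With the RNA-quality index as a covariate it was 0.53, adjusted p = 0.106, and the gene's second probe set gave 0.24, which did not pass. SLC30A5 gave -0.12 in 3D and 0.19 in 2D, and neither passed.

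**Figure D4:**
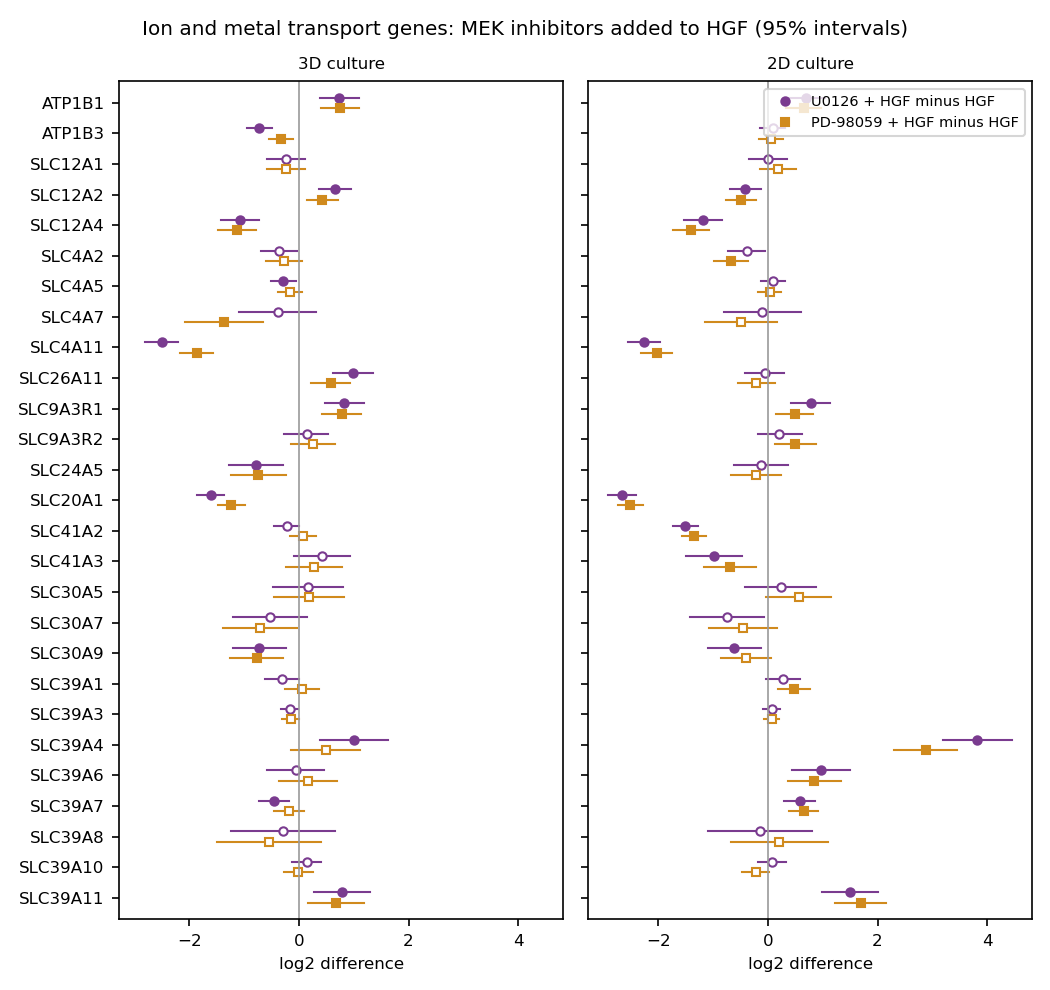
Log2 differences of the 27 tested genes (rows) for HGF with U0126 minus HGF (purple circles) and HGF with PD-98059 minus HGF (orange squares), in 3D (left) and 2D (right). Bars are 95% intervals and filled points passed. SLC20A1 and SLC12A4 lie left of 0 and ATP1B1 and SLC39A11 right of 0 for both compounds in both cultures. SLC39A11 entered the test through 2D control and the 2D inhibitor groups, so its 2D points are descriptions with no test.

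Both inhibitors were set against each other in each culture, since they differ in chemical structure and share the target MEK. In 3D, 2 of 27 genes differed, beside 11.8% (2.99% higher, 8.82% lower) of all probe sets, and 0 by at least 2-fold, beside 1.33%. Before adjustment, 7 of the 27 had a limma p below 0.05 there. SLC4A11 was lower with U0126 than with PD-98059, at 2.32, 2.93 and 2.57 against 3.26, 3.21 and 3.29, with a difference of -0.64 ± 0.16 (adjusted p = 0.00828), both groups near background, and without 3D U0126 array 1 the value was -0.50, adjusted p = 0.0759. ATP1B3 was lower with U0126, at 12.74, 12.66 and 12.91 against 13.05, 13.15 and 13.29, with a difference of -0.39 ± 0.12 (adjusted p = 0.0311), and the call was lost without any 1 of 3D PD-98059 arrays 2 and 3 and 3D U0126 arrays 1 and 2, at -0.40 to -0.33 and adjusted p of 0.0719 to 0.168. In 2D limma called none of the 27, beside 1.62% (0.845% higher, 0.778% lower) of all probe sets, while 2 had an unadjusted p below 0.05, and 0.356% of all probe sets passed at 2-fold. These 2 were SLC39A4, at 0.95 ± 0.30 with a 95% interval of 0.32 to 1.57, and SLC39A10, at 0.29 ± 0.13 with 0.03 to 0.55, named after their values were seen. For SLC20A1 the U0126 minus PD-98059 difference had an interval of -0.63 to -0.11 in 3D and -0.40 to 0.09 in 2D, and for SLC12A4 -0.32 to 0.44 and -0.14 to 0.57. The 3D interval of SLC20A1 lay below 0, but the difference did not pass after adjustment. The other intervals span 0, which does not show that the compounds act alike.

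The effects of the inhibitors differed between cultures for 8 of 27 genes with PD-98059 (5 more positive in 3D, 3 more negative) and for 10 with U0126 (5 and 5), beside 34.2% (22% higher, 12.3% lower) and 36.5% (19.9% higher, 16.6% lower) of all probe sets. Differences of at least 2-fold numbered 4 and 8, beside 13.8% and 14.9%. For SLC20A1 the fall was smaller in 3D by 1.27 ± 0.16 with PD-98059 and 1.06 ± 0.17 with U0126 (adjusted p of 2.05e-05 or lower). The dim SLC41A3 was among both counts, with PD-98059 at 0.97. It entered the test through 2D HGF, so this value is a description with no test. Without any 1 of 2D HGF array 2, 3D PD-98059 arrays 1 and 3 and 2D PD-98059 array 2, the call was lost. The values were then 0.77 to 0.91, with adjusted p of 0.052 to 0.108. With the RNA-quality index as a covariate the value was 0.85, adjusted p = 0.0737. For SLC39A11 with PD-98059 the difference between cultures was -1.02 ± 0.34, also a description with no test. Without 3D PD-98059 array 3 it was -0.87 and limma's call was lost. For SLC39A6 with U0126 it was -1.03 ± 0.36 (adjusted p = 0.0271), and the call was lost without any 1 of 3D HGF arrays 3 and 4, 2D HGF array 4, 3D U0126 array 3 and 2D U0126 array 1, at -0.96 to -0.82 and adjusted p of 0.0526 to 0.0765.

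Other genes of ion and metal transport, 58 on the array, were read as regulators and partners of these carriers, and 26 of them were tested. HGF raised 10 and lowered 10 in 3D, and raised 10 and lowered 9 in 2D, beside the 62.1% and 55.4% of all probe sets given above. 3D control was higher than 2D control for 5 and lower for 5, beside 52.3% (23.6% higher, 28.7% lower). Their medians were 0.03 in 3D, 0.06 in 2D and 0.09 between controls. FXYD2, the gamma subunit that modulates the sodium pump in kidney, had 9.19, 9.25, 9.36 and 8.99 in 3D HGF against 11.18, 10.92, 11.24 and 11.05 in 3D control, and 12.19, 11.68, 12.61 and 12.31 in 2D HGF against 13.50, 13.33, 13.29 and 13.49 in 2D control. It fell with a difference of -1.90 ± 0.15 in 3D and -1.21 ± 0.15 in 2D, without overlap, and 3D control was lower than 2D control with a difference of -2.31 ± 0.15 (adjusted p of 9.76e-08 or lower for all 3). U0126 raised it by 1.97 in 3D and 1.36 in 2D, and PD-98059 by 1.68 in 3D and 1.31 in 2D. FXYD5 and FXYD6, further small partners of the pump, rose with HGF. For FXYD5 the rise was 1.55 ± 0.19 in 3D and 2.58 ± 0.19 in 2D, and for FXYD6 0.52 ± 0.15 in 3D and 2.77 ± 0.15 in 2D. The 3D arrays of FXYD6 overlapped, with 3D HGF array 4 at 10.12 below 3D control array 1 at 10.17. FXYD5 was also higher in 3D than in 2D control by 1.03 ± 0.19 (adjusted p = 7.18e-05).

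**Figure D5:**
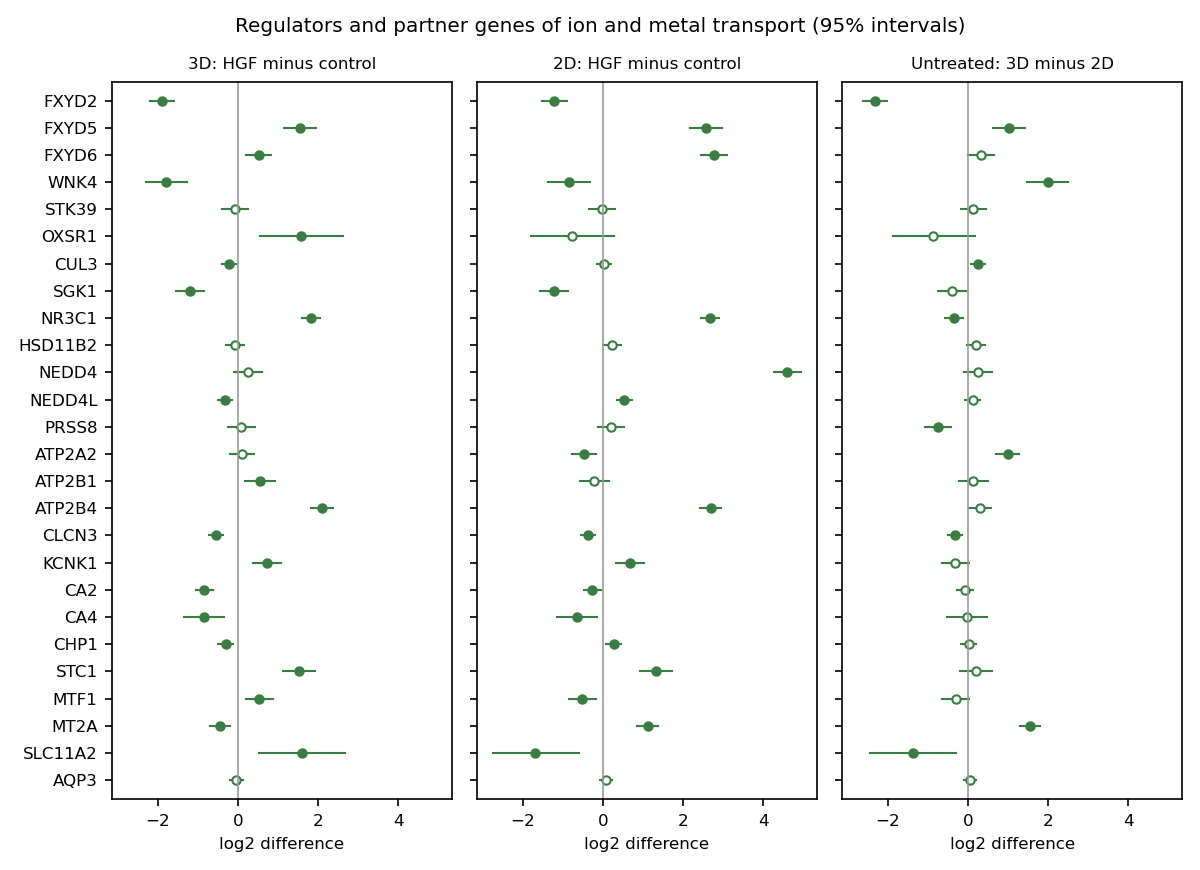
Log2 differences of 26 tested regulator and partner genes (rows) for HGF against control in 3D, HGF against control in 2D, and untreated 3D against untreated 2D cells. Points are limma estimates, bars 95% intervals and filled points passed; FXYD2 lies left of 0 in all 3 panels, and NEDD4, far right in 2D, entered the test through the 2D HGF arrays alone.

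NEDD4, a ubiquitin ligase of the family that marks epithelial sodium channels for removal, reached log2 5 in 4 arrays only, those of 2D HGF. Its levels there were 7.98, 7.53, 7.52 and 7.74, against 3.12, 3.02, 3.11 and 3.07 in 2D control, and 3.21, 3.13, 4.22 and 3.76 in 3D HGF against 3.27, 3.39, 3.25 and 3.42 in 3D control. It entered the test through the 2D HGF arrays alone, where it had to be higher, and the 2D control arrays were near the array medians of 3.06 to 3.26, so no size or test of the difference is given. The calcium pump of the plasma membrane ATP2B4 rose by 2.11 ± 0.13 in 3D and 2.70 ± 0.13 in 2D, and NR3C1, the glucocorticoid receptor, by 1.83 ± 0.11 in 3D and 2.68 ± 0.11 in 2D. SGK1, a kinase that activates sodium transport, fell with a difference of -1.19 ± 0.17 in 3D and -1.21 ± 0.17 in 2D. WNK4, a kinase that controls SLC12 cotransporters, fell with a difference of -1.78 ± 0.25 in 3D (adjusted p = 1.07e-06) and -0.85 ± 0.25 in 2D (adjusted p = 0.00604). With the RNA-quality index as a covariate its 2D value was -0.35, adjusted p = 0.289. In 2D only control array 4, at 5.46, reached log2 5, so WNK4 entered the test through the 3D groups. Its level in 3D control was above 2D control by 1.99 ± 0.25, which is a description with no test.

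Among genes of metal handling, SLC11A2, the divalent metal carrier DMT1, had 9.34, 7.84, 8.58 and 8.75 in 3D HGF against 7.08, 7.29, 6.86 and 6.85 in 3D control and 5.24, 7.64, 7.01 and 6.92 in 2D HGF against 7.89, 8.55, 9.02 and 8.06 in 2D control. It rose by 1.61 ± 0.52 in 3D (adjusted p = 0.0094) and fell by 1.68 in 2D (adjusted p = 0.00813), a difference of 3.29 ± 0.74 (adjusted p = 0.000659). The arrays of the gene spread widely, with a standard error of 0.52. Without 2D HGF array 1 the 2D value was -1.19 (adjusted p = 0.0555), and without 3D HGF arrays 1 and 4 the 3D value was 1.19 (adjusted p = 0.116). It was lower in 3D than in 2D control with a difference of -1.36 ± 0.52 (adjusted p = 0.0311), and the call was lost without any 1 of 3D control arrays 1, 3 and 4 and 2D control arrays 2 and 3, at -1.38 to -1.15 and adjusted p of 0.0503 to 0.0961. MT2A, a metallothionein that binds zinc, was higher in 3D than in 2D control by 1.55 ± 0.13 (adjusted p = 1.46e-10), fell with HGF in 3D with a difference of -0.44 ± 0.13 (without 3D HGF arrays 1 and 4 -0.28, adjusted p = 0.0786) and rose in 2D by 1.12 ± 0.13. PRSS8, the protease prostasin that cleaves the sodium channel, was lower in 3D than in 2D control with a difference of -0.74 ± 0.16 (adjusted p = 0.00034).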

How the data were processed

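Messenger RNA of MDCK cells in 8 groups was measured on 29 Affymetrix dog arrays. Each probe set has 1 log2 level as deposited by the authors. The tools named are GCRMA, MAS5, Partek 6.6 and Expression Console 1.1 from Affymetrix, per the submitters' processing notes, and their role and order are not stated there. These values were used without further normalization. Control probe sets (111 of 43035) were left out, and 16571 probe sets at log2 5 or more in at least 3 arrays were tested. The number of arrays limits the precision.

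Gene names are those of the platform annotation: 29254 probe sets had 1 symbol, 439 several and 13231 none. Of the 94 genes, 90 had the same symbol in RefSeq and 4 had no match. R 4.3.3 with limma 3.58.1 fitted group means over all arrays (eBayes with a trend), and p-values were adjusted by Benjamini-Hochberg over all tested probe sets in a comparison (threshold 0.05). The procedure was tested on simulated data. Named genes are those that passed with arrays of both groups not overlapping, up to 12 in each direction for HGF and for culture, 6 for an inhibitor and 3 between inhibitors or for partners, up to 8 by size for the HGF difference between cultures and 3 for those of the inhibitors, and a list of tubule carriers always given. The genes and lists were chosen with earlier results of these data known. Alternatives were other filters, normalizations, variance models, array weights, a replicate block, the RNA-quality index as a covariate, probe sets of a gene averaged, a 2-fold threshold and arrays left out.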

Additional observations from a re-analysis of the deposited data

Results flagged for a closer look

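In groups of 4 arrays, 10 of 135 sets of values held 1 array far from the other 3, where chance gives about 1 in 20. Of these, 4 were in 3D HGF. 3D HGF array 1 was low for SLC39A11 at 2.88 and SLC39A6 at 8.06 and high for SLC12A1 at 5.40, and 3D HGF array 4 was high for SLC39A8 at 8.83. SLC24A5 stood apart in 3D control array 4 at 5.57, 2D PD-98059 array 2 at 4.26 and 2D control array 2 at 4.95. SLC30A9 did in 2D HGF array 3 at 7.13 and 2D PD-98059 array 2 at 6.34, and SLC30A7 in 2D control array 1 at 7.68.

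The 3D minus 2D difference of the HGF effect passed limma's threshold for 13 genes. Of these, SLC39A4, SLC4A11, SLC39A11 and SLC41A3 entered the test through some of the compared groups. Their values here and under the inhibitors are descriptions with no test. The 3D minus 2D difference was positive for SLC39A4 (1.78), SLC4A7 (1.31), SLC39A1 (1.26), SLC39A7 (1.17), SLC4A11 (1.11), SLC30A9 (0.81), SLC39A11 (0.79) and ATP1B3 (0.64). It was negative for SLC41A3 (-1.59), SLC26A11 (-1.55), SLC41A2 (-1.07), SLC20A1 (-0.88) and SLC12A2 (-0.53). For PD-98059 the 3D minus 2D difference was 1.42 for SLC41A2, 1.27 for SLC20A1 and 0.97 for SLC41A3, and it was -2.39 for SLC39A4, -1.02 for SLC39A11 and -0.83 for SLC39A7. For U0126 it was 1.41 for SLC41A3, 1.28 for SLC41A2 and 1.07 for SLC12A2, and it was -2.82 for SLC39A4, -1.03 for SLC39A6 and -1.03 for SLC39A7.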

How the results depend on the processing

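Counts of the 27 genes are given as higher and lower. Asking for 2-fold gave 5 and 3 for HGF in 3D, 4 and 2 in 2D, 1 and 3 for untreated 3D against 2D, 5 and 3 for the HGF difference between cultures, 0 and 3 for U0126 and 0 and 4 for PD-98059 in 3D, 2 and 4 for each in 2D, 0 lower for U0126 against PD-98059 in 3D, 2 higher for the PD-98059 difference between cultures and 3 lower for that of U0126. With no filter, HGF in 3D had 24 higher, of which 14 were genes below the level asked for, untreated 3D 15 higher, U0126 against PD-98059 in 3D 1 lower and the U0126 difference 3 lower. A filter at log2 6 gave 5 higher for HGF in 2D and 1 lower for U0126 against PD-98059 in 3D. Untreated 3D had 7 higher with the compared groups alone, array weights, the RNA-quality index or 3D HGF arrays 1 and 4 left out, and 2 with probe sets of a gene averaged. In 3D, PD-98059 had 2 higher with compared groups alone and 3 with median centring or array weights, and U0126 had 5 lower with compared groups alone. PD-98059 in 2D had 11 lower with array weights. U0126 against PD-98059 in 3D had 1 higher with compared groups alone, array weights, the index or both 3D HGF arrays left out, and lower were 0 with compared groups alone, 1 with quantile normalization, median centring or the mean of probe sets, 5 with array weights and 4 with the index. The PD-98059 difference had 5 lower with quantile normalization or median centring, 6 with array weights, 7 with the index and 8 without both arrays. The U0126 difference had 3 lower with compared groups alone, 8 with quantile normalization and 9 with array weights or the index. The cause was not tested.

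Leaving out 1 array gave, as lowest to highest, 9 to 12 higher and 5 to 6 lower for HGF in 3D, 6 to 8 and 6 to 8 in 2D, 3 to 7 and 9 to 11 for untreated 3D, 6 to 10 and 4 to 7 for the HGF difference, 5 to 6 and 7 to 10 for U0126 and 3 to 5 and 5 to 9 for PD-98059 in 3D, 6 to 6 and 5 to 9 for U0126 and 6 to 9 and 7 to 8 for PD-98059 in 2D, 0 to 1 and 0 to 3 for U0126 against PD-98059 in 3D, 0 and 0 in 2D, 4 to 7 and 3 to 6 for the PD-98059 difference and 5 to 5 and 3 to 7 for the U0126 difference. Without 3D HGF array 1, untreated 3D had 7 higher and the PD-98059 difference 6 lower.

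Signs turned for 8 values. With the RNA-quality index SLC30A5 gave -0.63 for HGF in 2D. With the mean of probe sets the HGF difference was 0.73 for SLC12A2, 0.64 for CLCN3 and 0.33 for NR3C1, untreated 3D was -0.76 for CHP1, PD-98059 gave -0.19 for SLC12A2 in 3D, and in 2D -0.03 for ATP2A2 and 0.24 for STK39. The replicate block left 633 of 636 values of single genes as they were: SLC30A9 with U0126 in 2D was -0.57 (limma adjusted p = 0.059) and the HGF difference of SLC39A11 0.79 (limma adjusted p = 0.0551). Same-numbered arrays did not deviate together in every pair, with correlations from -0.296 to 0.409. The labels do not say what the number means, and these correlations cannot tell whether such arrays shared a culture or batch. Signal near background limits the 67 dim genes.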
